A study of Mus musculus with 6 samples.

Results

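MHC class I presentation was followed through 10 genes, chosen by symbol as rows of the deposited count table, out of 24411 rows in all. All 10 were found: the heavy chain genes H2-K1, H2-D1, H2-Q7, H2-T23 and H2-M3, the light chain gene B2m, the peptide transporter genes Tap1 and Tap2, the loading chaperone gene Tapbp and the transactivator gene Nlrc5. RNA was sequenced from microglia, the resident macrophages of the brain, taken from the brains of 8-week-old C57BL/6J mice. Libraries from Mir137 knockout mice, labelled gKO, and from wild-type mice, labelled gWT, were compared, with 3 libraries of each genotype and no treatment named for either. The question was how transcription in these cells differs when the microRNA miR-137 is lost. The labels name no promoter or Cre line, mention 4 mice without tying them to libraries and do not state whether each library is a different animal. The p-values therefore measure spread among these 6 libraries only, and that spread may be technical.

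MHC class I molecules sit on the surface of nearly all nucleated cells and show short peptides from inside the cell to CD8 T cells and natural killer cells. A polymorphic heavy chain pairs with beta-2 microglobulin, the proteasome cuts proteins into peptides, the TAP transporter carries these into the endoplasmic reticulum, and tapasin bridges the transporter and the empty heavy chain until a peptide fits. NLRC5 drives transcription of many of these genes together with RFX, CREB and NF-Y factors, and interferons raise their expression. Resting microglia hold little class I on their surface and gain more in inflammation and ageing.

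RefSeq promoter windows (GRCm38.p6, 250 bases before to 50 after the annotated start) were matched by symbol for 8 of the 10 genes. Tap2 and Nlrc5 had no entry. The windows of 5 genes are shown, because 4 of them belong to the genes whose libraries did not overlap between genotypes (H2-K1, H2-D1, H2-Q7 and Tap1) and the other, B2m, encodes the partner of every heavy chain. They run 5′ to 3′ in the direction of transcription, and capitals mark matches on either strand to 4 motifs: the interferon response element (GAAA, any 2 bases, then GAAA again), the kappa B element (GGG, any 2 bases, then TTCCC), the CRE core (TGACG) and the CCAAT box (named by its letters, and read in reverse where it lies on the other strand).
H2-K1 (chr17:34000298-34000597, minus strand): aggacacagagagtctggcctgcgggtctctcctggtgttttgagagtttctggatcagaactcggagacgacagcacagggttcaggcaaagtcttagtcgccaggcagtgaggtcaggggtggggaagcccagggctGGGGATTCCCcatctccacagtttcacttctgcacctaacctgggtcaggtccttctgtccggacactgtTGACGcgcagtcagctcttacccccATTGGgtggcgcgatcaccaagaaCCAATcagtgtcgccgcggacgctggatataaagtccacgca
H2-D1 (chr17:35262844-35263143, plus strand): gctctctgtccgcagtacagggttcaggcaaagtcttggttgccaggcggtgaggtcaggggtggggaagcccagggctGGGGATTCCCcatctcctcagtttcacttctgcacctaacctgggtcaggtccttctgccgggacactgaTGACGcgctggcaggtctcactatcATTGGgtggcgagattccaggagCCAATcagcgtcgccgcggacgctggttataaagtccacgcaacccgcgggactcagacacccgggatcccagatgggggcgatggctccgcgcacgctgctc
H2-Q7 (chr17:35438905-35439204, plus strand): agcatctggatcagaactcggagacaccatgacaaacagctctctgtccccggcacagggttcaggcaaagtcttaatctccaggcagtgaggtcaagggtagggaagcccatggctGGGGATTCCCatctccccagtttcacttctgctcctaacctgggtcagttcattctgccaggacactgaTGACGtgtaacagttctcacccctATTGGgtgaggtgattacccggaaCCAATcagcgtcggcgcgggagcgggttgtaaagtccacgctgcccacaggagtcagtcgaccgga
B2m (chr2:122147437-122147736, plus strand): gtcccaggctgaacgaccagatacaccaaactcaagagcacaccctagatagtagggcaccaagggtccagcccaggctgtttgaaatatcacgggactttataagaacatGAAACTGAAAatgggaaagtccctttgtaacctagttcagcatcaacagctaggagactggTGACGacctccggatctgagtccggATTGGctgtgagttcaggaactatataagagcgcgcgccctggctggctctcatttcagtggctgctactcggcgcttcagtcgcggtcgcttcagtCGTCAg
Tap1 (chr17:34187306-34187605, plus strand): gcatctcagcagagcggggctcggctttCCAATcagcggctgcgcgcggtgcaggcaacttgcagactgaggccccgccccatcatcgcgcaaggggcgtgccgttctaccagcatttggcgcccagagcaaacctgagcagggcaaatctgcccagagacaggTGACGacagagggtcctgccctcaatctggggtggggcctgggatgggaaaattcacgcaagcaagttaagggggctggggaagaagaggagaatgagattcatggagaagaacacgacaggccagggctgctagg
No marked match overlaps another in these windows. H2-K1, H2-D1 and H2-Q7 share one layout: a kappa B match, a CRE core 70, 70 and 69 bases downstream of its first base, a reversed CCAAT box 25, 25 and 24 bases further on, and a forward CCAAT box 24, 23 and 24 bases after that. H2-K1 has another annotated start, whose window holds the same 4 matches. The kappa B motif stood in 3 of the 8 windows, against 1.75% of all 32851 RefSeq windows of this length. These 3 are the windows of H2-K1, H2-D1 and H2-Q7, related genes with the shared layout, so they are not independent matches. The same 3 windows count towards the CRE core and the CCAAT box. The interferon motif stood in 2 of 8 (H2-T23 and B2m; 3.44% of all windows), the CRE core in 6 of 8 (20.8%) and the CCAAT box in 8 of 8 (37.4%). These are matches of letters, not measured binding. The interferon pattern is strict, so an unmarked window, including those of H2-K1, H2-D1 and H2-Q7, may still hold a variant of that element. Tap1 is read away from Psmb9, an immunoproteasome gene, with start sites 226 bases apart, and their windows overlap over 275 bases (chr17:34187306-34187580).

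The libraries held 14603884 to 17652976 expected counts, with a filter on low counts leaving 13403 genes to test. Every one of the 16 microglial marker genes was tested, and their summed level was 52530 to 57850 CPM over the 6 libraries (CPM being the expected count relative to the TMM-scaled library size). The sum does not show single markers, whose calls are given below with the other cell types. gKO replicate 3 stood apart, at 91.5 on the first principal component against -37.7 to -3.45, and its deviations from the mean over libraries fell with exon length across genes (Spearman rho = -0.52, against -0.03 to 0.31 in the others). Values without this library stand beside those with all 6 where it moved them. Mir137 was at 0 counts in all 6 libraries, so it checks no label. Xist, the RNA of the inactive X chromosome, read 0, 0 and 8 counts in gKO, against 2519, 2000 and 1830 in gWT, while the Y-linked gene Ddx3y read 1220 to 1522 counts in every library. Each gWT library thus held both Xist and Ddx3y RNA. Ddx3y did not overlap between genotypes, at 87.1, 104 and 104 CPM in gKO against 71.9, 75.0 and 76.8 CPM in gWT. Its edgeR adjusted p was 0.315 with all 6 libraries and 0.0491 without gKO replicate 3. Xist split the libraries exactly as genotype did. How far the sex of the mice bears on the values below was therefore not tested, and it cannot be told apart from genotype here.

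With all 6 libraries, edgeR called 0 of the 10 class I genes at an adjusted p under 0.05, where it called 0.627% of all tested genes and 0.231% as lower. DESeq2 and limma-voom called 0 as well, limma-voom with quality weights called 2, and 3 of the 10 had an unadjusted edgeR p under 0.05, against 10.9% of all tested genes. H2-Q7 passed the filter on low counts through gWT, so it had to differ and is left out of the next counts. Of the other 9, 2 had an unadjusted edgeR p under 0.05, 6 were negative, and the median log2 ratio of gKO to gWT (the fold change on a log2 scale) was -0.14, against 0.0076 over all tested genes. In 3 of these 9 (H2-K1, H2-D1 and Tap1) every gKO library lay below every gWT library, which held for 11.3% of all tested genes. Without gKO replicate 3, edgeR called 3 of the 10 as lower in gKO, namely H2-K1, H2-D1 and Tap1, where it called 7.81% of all genes and 3.82% as lower. Each of the 10 passed the filter. In bulk RNA such as this, fewer cells of a type and less RNA per cell cannot be told apart, and the summed endothelial markers were also lower, at 679 to 876 CPM in gKO against 1357 to 1738 CPM in gWT, a difference whose part in the class I values was not tested.

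**Figure D1:**
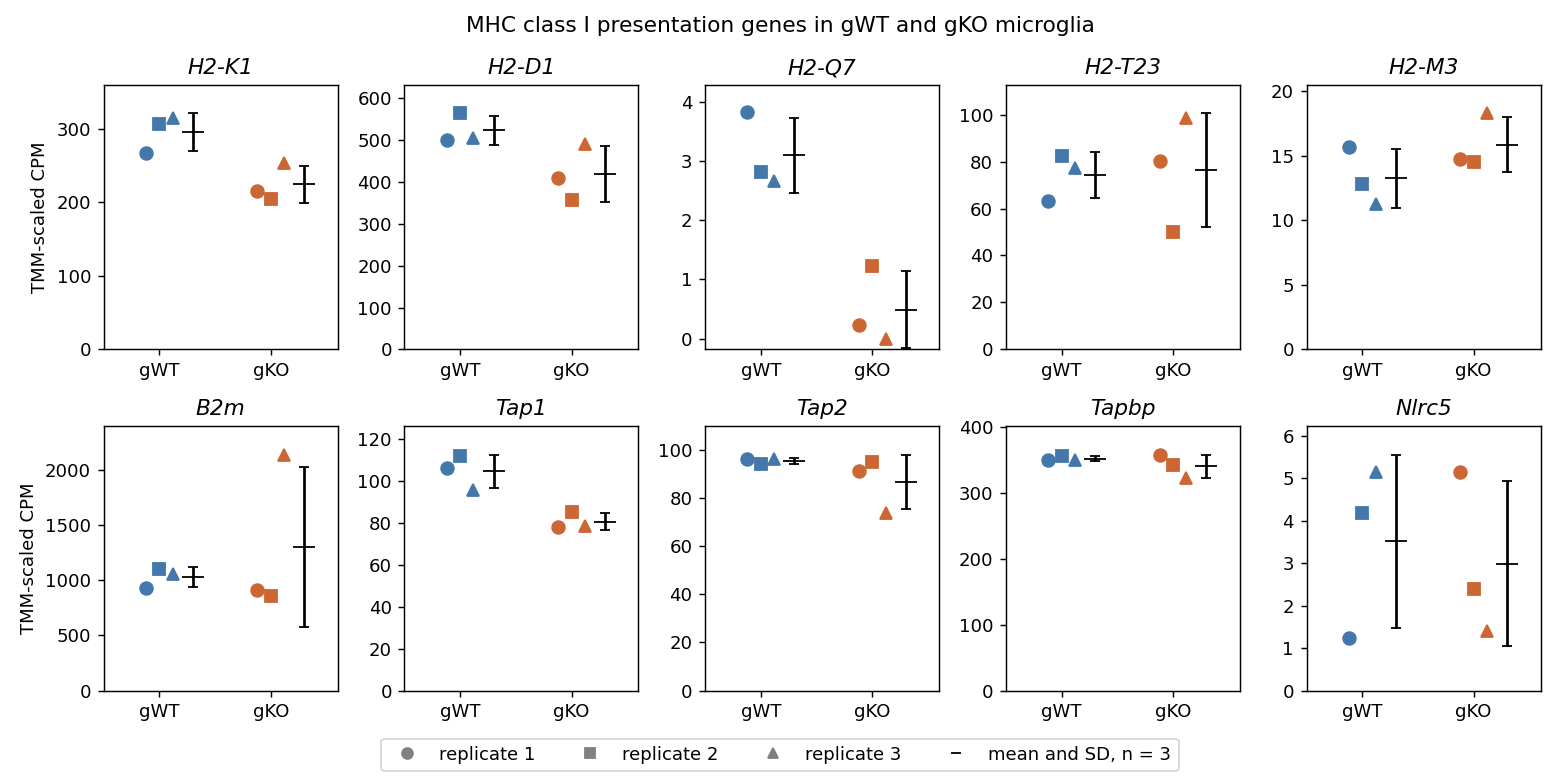
Level of each class I gene in each library, in TMM-scaled CPM on a linear axis of its own; circles, squares and triangles are replicates 1, 2 and 3, and the black bars are mean and SD (n = 3). H2-K1, H2-D1, H2-Q7 and Tap1 show no overlap between genotypes, and gKO replicate 3 (orange triangle) is far above the rest in B2m, at 2138 CPM.

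The classical heavy chains, which present most peptides to CD8 T cells, read lower in every gKO library than in any gWT library, by a small amount that edgeR did not call with all 6 libraries. H2-K1 (ENSMUSG00000061232.16, chromosome 17, 33996017 to 34000347) had 215, 205 and 253 CPM in gKO replicates 1 to 3 and 266, 306 and 314 CPM in the gWT replicates. The lowest gWT library was above the highest gKO library, which was replicate 3. The means were 224 ± 25.3 and 295 ± 25.4 CPM (n = 3 each, SD), a log2 ratio of -0.40 (SE 0.14, 95% interval -0.71 to -0.08) with an edgeR adjusted p of 0.339, so H2-K1 was not called. Without gKO replicate 3 it was lower in gKO, with a log2 ratio of -0.50 (SE 0.079, edgeR adjusted p = 0.00153). H2-D1 (ENSMUSG00000073411.11, chromosome 17, 35262730 to 35267499) had 410, 357 and 489 CPM in gKO against 499, 564 and 505 CPM in gWT. Again no library crossed over. Its log2 ratio was -0.32 (SE 0.15, 95% interval -0.66 to 0.02, edgeR adjusted p = 0.491), and without gKO replicate 3 it was lower in gKO, at -0.46 (SE 0.077, edgeR adjusted p = 0.00244). Summed, the pair stood at 643 ± 91.5 CPM in gKO, 78.6% of the 818 ± 52.0 CPM in gWT (n = 3 each, SD).

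These calls rested on which gKO library was left out. Without gKO replicate 1 or 2, or without any 1 gWT library, edgeR called neither H2-K1 nor H2-D1, with adjusted p from 0.417 to 0.990, and called at most 5 genes of the whole table. The sign of both stayed negative in all 15 alternatives run, from -0.50 to -0.34 for H2-K1 and from -0.46 to -0.22 for H2-D1. Limma-voom with quality weights, which gave gKO replicate 3 a weight of 0.165, called both as lower (adjusted p = 0.0163 and 0.0272) among 3.08% of all genes called and 1.13% called as lower.

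**Figure D2:**
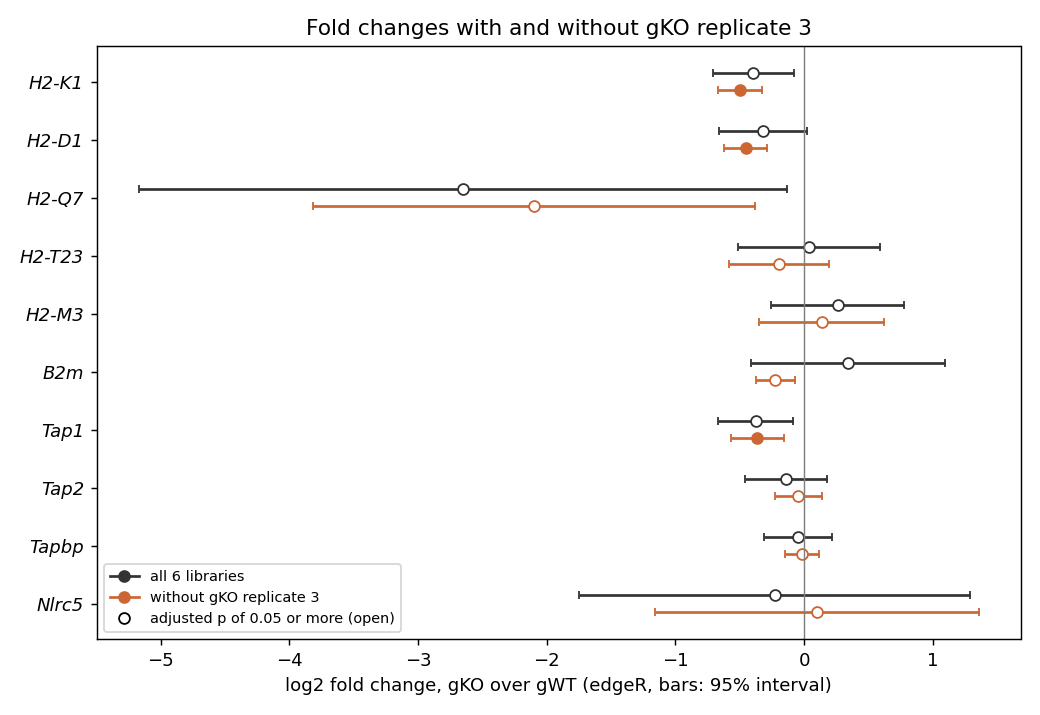
Log2 ratio of gKO over gWT for each class I gene by edgeR, with its 95% interval, from all 6 libraries (dark) and without gKO replicate 3 (orange); filled points passed an adjusted p of 0.05. H2-K1, H2-D1 and Tap1 are filled only without gKO replicate 3, and B2m changes from 0.34 to -0.23.

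H2-Q7 encodes a nonclassical chain of the Qa-2 group and was the scarcest heavy chain in the set. Its deposited counts were 4, 17.9 and 0 in gKO, against 65, 49.2 and 45.5 in gWT, and 3 of the 6 values were not whole numbers. Every gKO library was below every gWT library. The log2 ratio was -2.65 (SE 1.1, 95% interval -5.17 to -0.13) with an edgeR adjusted p of 0.438, and -2.10 (SE 0.80, adjusted p = 0.129) without gKO replicate 3.

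H2-Q7 shares part of its sequence with related genes. Of the distinct 50-base words in its GENCODE M21 transcripts, 26.4% also occurred in transcripts of other genes, against 9.63% for H2-K1, 12.8% for H2-D1, 13.6% for H2-T23 and 0% for B2m and Nlrc5. H2-L, H2-Q8, H2-Q9 and H2-T9 had no match in that annotation, so sharing with them was not measured. Counts of related genes moved from library to library: gWT replicate 1 had 31 counts for H2-Q8 and 0 for H2-Q6 and H2-Q9, whereas gWT replicates 2 and 3 had 0 for H2-Q8 and 70.9 and 44 for H2-Q6. Summed over H2-Q6 to H2-Q9 the counts were 46, 33 and 8 in gKO and 96, 153 and 116 in gWT. The summed genotypes did not overlap, at 1.82 ± 1.1 and 7.06 ± 1.56 CPM (n = 3 each, SD). This sum contains H2-Q7, so it is no separate support for the H2-Q7 difference. H2-Q6, H2-Q8 and H2-Q9 each overlapped between genotypes on their own. H2-Q4, the most abundant gene of this block, had 47.4, 37.9 and 29.9 CPM in gKO against 46.0, 61.0 and 40.1 CPM in gWT, which overlapped (log2 ratio -0.35, edgeR adjusted p = 0.640; -0.21 without gKO replicate 3). Over all 9 H2-Q genes the sum was 41.6 ± 9.34 CPM in gKO against 57.8 ± 12.4 CPM in gWT, and here gKO replicate 1 lay above gWT replicate 3.

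**Figure D3:**
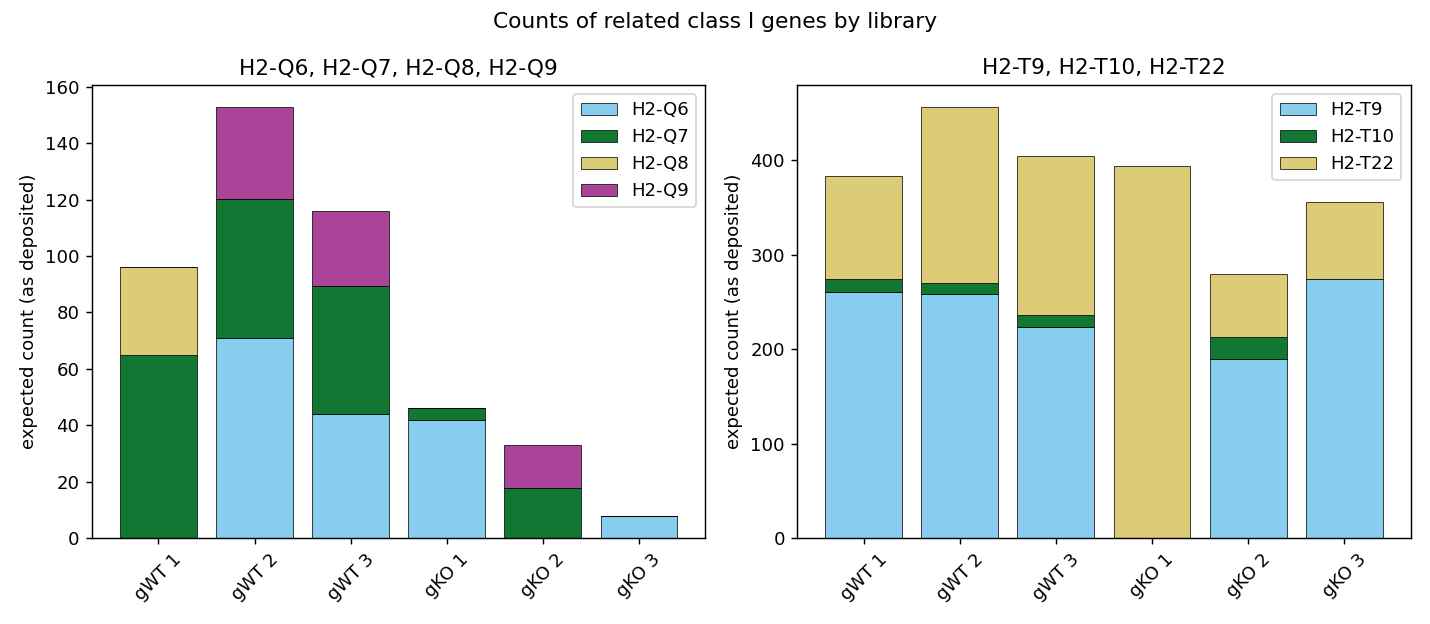
Deposited expected counts of related class I genes in each library, stacked by gene: H2-Q6 to H2-Q9 on the left and H2-T9, H2-T10 and H2-T22 on the right. The split between genes differs from library to library; the H2-Q stacks are lower in gKO (8 to 46 counts) than in gWT (96 to 153), while the H2-T stacks overlap.

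The nonclassical genes H2-T23 and H2-M3 had overlapping genotypes, and the log2 ratio of H2-T23 changed sign with the libraries used. H2-T23 encodes Qa-1, which binds leader peptides of other class I chains and is read by the CD94/NKG2A receptor. It had 80.2, 50.2 and 98.3 CPM in gKO against 63.2, 82.4 and 77.4 CPM in gWT, with gKO holding both the highest and the lowest library. Its log2 ratio was 0.04 (SE 0.24, 95% interval -0.52 to 0.59, edgeR adjusted p = 0.973) and turned to -0.19 without gKO replicate 3 (adjusted p = 0.582). H2-M3, which presents N-formylated peptides of bacteria and mitochondria, had 14.8, 14.5 and 18.3 CPM in gKO against 15.7, 12.8 and 11.2 CPM in gWT. The groups overlapped, with a log2 ratio of 0.26 (SE 0.22, 95% interval -0.25 to 0.77, edgeR adjusted p = 0.754) that became 0.14 without gKO replicate 3 (95% interval -0.35 to 0.62, adjusted p = 0.789).

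Of 32 other class I and class I-like heavy chain genes listed, 27 were in the table, 7 of them at 0 in all libraries, and 14 were tested. EdgeR called 0 of the 14, with 2 at an unadjusted p under 0.05, DESeq2 and limma-voom with quality weights called 0 as well, and 8 were positive and 6 negative (median 0.15). Those 2 were Cd1d1, which presents lipids to NKT cells, at 23.2 ± 3.03 CPM in gKO against 15.7 ± 1.05 in gWT (n = 3 each, SD; log2 ratio 0.56, SE 0.19, edgeR adjusted p = 0.319), and H2-K2, at 3.44, 4.32 and 9.19 CPM in gKO against 2.53, 3.14 and 1.52 CPM in gWT (1.23, SE 0.50, edgeR adjusted p = 0.432). In both, every gKO library was above every gWT library, opposite in sign to H2-K1. The share of all tested genes that separated in this direction was not computed. Without gKO replicate 3 the log2 ratio was 0.47 for Cd1d1 (edgeR adjusted p = 0.153) and 0.68 for H2-K2 (SE 0.53, edgeR adjusted p = 0.493). Cd1d1 shared 19.1% of its words with Cd1d2, and 4 of its 6 counts were not whole numbers. Every gKO library of H2-T24 was below every gWT library, by a narrow margin. H2-T24 had 32.1, 30.7 and 13.1 CPM in gKO against 32.3, 39.3 and 39.8 CPM in gWT, with the low value in gKO replicate 3 (log2 ratio -0.55, edgeR adjusted p = 0.592; -0.25 without that library). H2-T9, H2-T10 and H2-T22, chosen after their values were seen, also differed in their split between libraries: gKO replicate 1 had 0 counts for H2-T9 and 394 for H2-T22, and gKO replicate 2 had 189 and 66.7. Their sum was 394, 280 and 356 counts in gKO, against 383, 457 and 405 in gWT, 92.4% of the gWT mean in CPM. H2-L, which had no match in the annotation, had 0 counts in every gKO library and in gWT replicate 1. The other gWT libraries had 121.6 and 32.8, values that were not whole numbers. With H2-L added, the H2-D1 comparison was 419 ± 66.6 against 526 ± 39.2 CPM (n = 3 each, SD).

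B2m (ENSMUSG00000060802.8, chromosome 2, 122147686 to 122153083), the light chain shared by all these heavy chains, turned on gKO replicate 3. It had 907, 860 and 2138 CPM in gKO against 926, 1098 and 1056 CPM in gWT. Replicates 1 and 2 of gKO were below all gWT libraries and replicate 3 was above all of them. The log2 ratio was 0.34 with all libraries (SE 0.33, 95% interval -0.41 to 1.1, edgeR adjusted p = 0.777) and -0.23 without gKO replicate 3 (SE 0.070, 95% interval -0.38 to -0.07, edgeR adjusted p = 0.0669), so B2m was called in neither. B2m made up 61.6% of the summed CPM of the 10 genes in gKO replicate 3, against 39.8% to 42.7% in the other libraries.

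B2m is also the shortest of the 10, with 860 bases of annotated exon. In gKO replicate 3 it stood 1.27 log2 units above the mean of the other gKO libraries, and the 585 tested genes with under 1000 bases of exon stood 0.96 above at the median, against -0.05 for the 12742 longer ones. Nlrc5, the longest with 8120 bases, stood at -1.16 there, Tap2 (3442 bases) at -0.33, Tap1 (2953) at -0.06, Tapbp (2898) at -0.12 and H2-D1 (2102) at 0.35. Among the shorter genes H2-K1 (1655 bases) stood at 0.27, H2-T23 (1472) at 0.59 and H2-M3 (1438) at 0.31, but H2-Q7 (1536) was the lowest of the 10, at -1.30. Taking out each library's trend with length, an alternative chosen after the data were seen, gave B2m a log2 ratio of 0.13 (edgeR adjusted p = 0.586). The same fit gave H2-K1 -0.47 (adjusted p = 0.0521) and H2-D1 -0.36 (adjusted p = 0.0847), with 0 of the 10 genes called among 2.06% of all genes.

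Of the peptide transporter genes, Tap1 but not Tap2 had genotypes that did not overlap. Tap1 (ENSMUSG00000037321.17, chromosome 17, 34187553 to 34197225) had 78.3, 85.4 and 78.5 CPM in gKO against 106, 112 and 95.9 CPM in gWT. The genotypes did not overlap, and gKO replicate 3 lay between the other gKO libraries. The log2 ratio was -0.37 (SE 0.13, 95% interval -0.67 to -0.08, edgeR adjusted p = 0.327) and -0.36 without gKO replicate 3 (SE 0.097, edgeR adjusted p = 0.0336), where Tap1 was lower in gKO. Without any other single library its adjusted p was 0.326 to 0.964. Tap2 (chromosome 17, 34203527 to 34216321), the other chain of the transporter, had 91.2, 95.1 and 73.9 CPM in gKO against 96.3, 94.1 and 96.1 CPM in gWT. Its genotypes overlapped, with a log2 ratio of -0.14 (SE 0.14, 95% interval -0.46 to 0.18, edgeR adjusted p = 0.785) that became -0.05 without gKO replicate 3. Whether Tap1 and Tap2 differ in their response was not tested.

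Tapbp (chromosome 17, 33915899 to 33929292), which encodes tapasin, had overlapping genotypes close in level. It had 357, 343 and 322 CPM in gKO against 350, 356 and 350 CPM in gWT. The log2 ratio was -0.05 (SE 0.11, 95% interval -0.31 to 0.21, edgeR adjusted p = 0.921), and -0.02 with an interval of -0.15 to 0.12 without gKO replicate 3. Psmb9, which shares the promoter stretch with Tap1 and was picked for that reason after its values were seen, had 14.8, 14.7 and 31.3 CPM in gKO against 16.6, 21.8 and 18.3 CPM in gWT. Its log2 ratio was 0.10 (SE 0.32, edgeR adjusted p = 0.943) with all libraries and -0.37 (SE 0.20, adjusted p = 0.306) without gKO replicate 3, where the value for Tap1 was -0.36.

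Nlrc5 (ENSMUSG00000074151.13, chromosome 8, 94434356 to 94527272), the transactivator of class I genes, had few counts and a wide spread. It read 90, 35 and 20 counts in gKO, against 21, 73 and 88 in gWT, or 5.15, 2.40 and 1.41 CPM and 1.24, 4.17 and 5.15 CPM. The libraries of each genotype spread over about the same range. The log2 ratio was -0.23 (SE 0.66, 95% interval -1.75 to 1.29, edgeR adjusted p = 0.936) with all libraries and 0.10 without gKO replicate 3 (95% interval -1.16 to 1.35, adjusted p = 0.948). Both intervals include differences of either sign.

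Among 22 listed regulators of class I transcription, 21 were tested and edgeR called 0, with 2 at an unadjusted p under 0.05 (median -0.08). DESeq2 also called 0, limma-voom with quality weights called 1 as lower, and so did edgeR without gKO replicate 3. Eed, a subunit of the repressive PRC2 complex, was at 49.7 ± 11.5 CPM in gKO against 33.2 ± 5.49 in gWT (n = 3 each, SD; log2 ratio 0.58, edgeR adjusted p = 0.363; 0.37 without gKO replicate 3, adjusted p = 0.159). Of 9 interferon receptor and kinase genes edgeR called 0, with 1 at an unadjusted p under 0.05 (median 0.11), and DESeq2 and limma-voom with quality weights called 0. That gene, Ifngr2, a chain of the interferon gamma receptor, had 122 ± 4.97 CPM in gKO against 155 ± 12.2 CPM in gWT (n = 3 each, SD; log2 ratio -0.34, edgeR adjusted p = 0.356). Tyk2, a kinase of the type I interferon receptor, was at 50.5 ± 12.9 and 68.9 ± 1.43 CPM (n = 3 each, SD; -0.45, edgeR adjusted p = 0.469; -0.27 without gKO replicate 3, adjusted p = 0.154). Leaving out gKO replicate 3, Ifngr2 was lower (-0.37, edgeR adjusted p = 0.0168), while the kinase gene Jak1 (0.24) and the feedback inhibitor gene Socs3 (0.37), named after their values were seen, were higher.

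The genes of the proteasome, which cuts the peptides, mostly changed sign with gKO replicate 3. All 6 immunoproteasome genes were positive with all libraries (0.08 to 0.15) and all 6 were negative without gKO replicate 3 (median -0.21). Their summed level was 332, 322 and 616 CPM in gKO against 352, 421 and 397 CPM in gWT. EdgeR called 0 with all libraries, with 0 at an unadjusted p under 0.05, and DESeq2 and limma-voom with quality weights called 0. Psmb8, a catalytic subunit, had a log2 ratio of 0.13 (edgeR adjusted p = 0.884) and Psme1, a chain of the PA28 activator, had 0.12 (edgeR adjusted p = 0.887), against -0.18 and -0.14 without gKO replicate 3. Without gKO replicate 3 the assembly factor gene Pomp, named after its value was seen, was lower (-0.51, edgeR adjusted p = 0.0155). The 16 genes of the standard proteasome had a median of 0.17, and edgeR and DESeq2 called 0, with 1 at an unadjusted edgeR p under 0.05. Limma-voom with quality weights called 1, Psmb5, a catalytic subunit, as lower (-0.75, adjusted p = 0.0209). Psma6, an alpha ring subunit, was at 0.61 (edgeR adjusted p = 0.443) and 0.22 without gKO replicate 3, and Psmb6, a catalytic subunit, at 0.29 (edgeR adjusted p = 0.668) and 0.05. Their median was -0.20 without gKO replicate 3 and 3 were lower, Psma1 (-0.44), Psma7 (-0.50) and Psmb5 (-0.83), named after their values were seen.

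Chaperones and trimming enzymes of the peptide loading route showed small differences. Of 21 genes tested edgeR, DESeq2 and limma-voom with quality weights called 0, with 0 at an unadjusted edgeR p under 0.05, and their fold changes lay between -0.33 and 0.29 (median -0.07). The end points were Tapbpl, a tapasin relative that edits peptides (24.4 ± 2.62 CPM in gWT and 19.4 ± 6.07 in gKO, SD, n = 3 each), and Tpp2, a cytosolic peptidase (94.1 ± 6.24 CPM in gWT and 115 ± 13.8 in gKO). Tpp2 was higher without gKO replicate 3 (0.37, edgeR adjusted p = 0.0183), and the other 20 were not called there, Tapbpl being at -0.18.

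Class II genes, which present peptides from outside the cell to CD4 T cells, mostly had positive log2 ratios with all libraries. Of 12 tested, 10 were positive, with a median of 0.18, and edgeR called 0, with 2 at an unadjusted p under 0.05. Of these, 7 were positive and 5 negative without gKO replicate 3, with a median of 0.07. The alpha chain gene H2-Aa had 127, 124 and 206 CPM in gKO against 83.1, 91.5 and 84.0 CPM in gWT, with no overlap (log2 ratio 0.82, SE 0.21, edgeR adjusted p = 0.178). The invariant chain gene Cd74 had 594, 580 and 762 CPM in gKO against 451, 476 and 448 CPM in gWT, again with no overlap (0.49, SE 0.14, edgeR adjusted p = 0.232). How many of all tested genes had every gKO library above every gWT library was not computed. DESeq2 called H2-Aa as higher (adjusted p = 0.0210), and limma-voom with quality weights called H2-Aa (0.0112) and Cd74 (0.0267). By edgeR both were higher in gKO without gKO replicate 3, at 0.53 (edgeR adjusted p = 0.00171) and 0.35 (0.0029). The difference between class I and class II was not tested. Genes listed here as class I receptors were all positive, 9 of 9 tested, with a median of 0.91. EdgeR called 0 of them, with 2 at an unadjusted p under 0.05. The name of this list is only a label. Binding of class I was not checked for any of its genes, and Lilrb4a and Klrb1b are not taken here as receptors of class I. Of the 9, 8 were positive without gKO replicate 3, with a median of 0.89. Lilrb4a, an inhibitory receptor of myeloid cells, had 20.5, 19.8 and 26.6 CPM in gKO against 8.96, 10.7 and 11.7 CPM in gWT (log2 ratio 1.09, SE 0.22, edgeR adjusted p = 0.0985). It was called by DESeq2 (adjusted p = 0.00289), by limma-voom with quality weights (adjusted p = 0.0161) and by edgeR without gKO replicate 3 (adjusted p = 0.0162). Klrb1b, a lectin-like receptor of natural killer cells, had 4.16 ± 1.11 CPM in gKO against 1.36 ± 0.16 CPM in gWT (n = 3 each, SD; 1.61, edgeR adjusted p = 0.229). The authors' deposited table of genes higher in gKO lists Lilrb4a at a log2 fold change of 1.1 and Klrb1b at 1.62. Their 2 lists, of 201 lower and 75 higher genes, hold 0 of the 10 class I genes. Among genes of the lists used here, their entries nearest to 0 were Cldn5 (-1.02) and Cxcr2 (1.06), and H2-Aa was not listed. Every class I gene except H2-Q7 had a smaller log2 ratio than these entries. If the authors applied a cutoff on fold change, which was not checked, such genes could not be listed whatever their p.

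**Figure D4:**
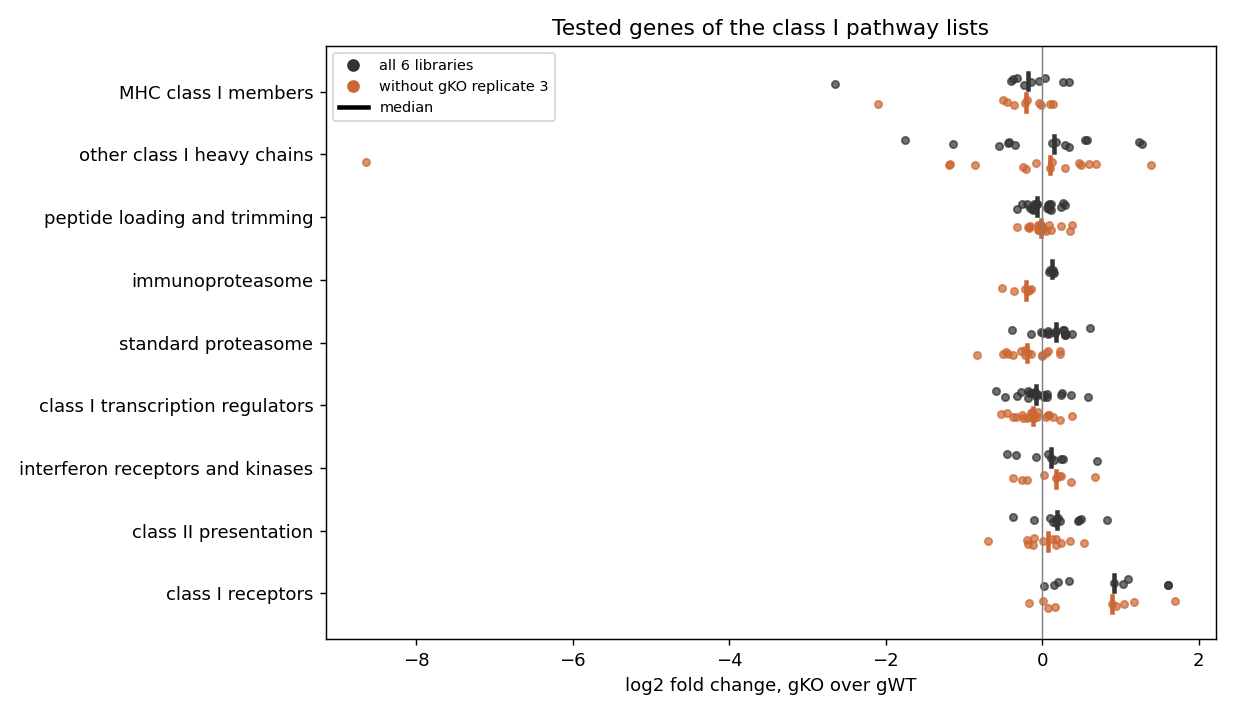
Log2 ratio of gKO over gWT for every tested gene of the class I set and 8 related lists, from all 6 libraries (dark) and without gKO replicate 3 (orange), with the median of each list as a bar. The proteasome lists change sign without gKO replicate 3; the point near -8.6 is H2-L, whose fitted value depends on the prior count because its gKO libraries hold 0 counts.

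Per kilobase of annotated exon, the 10 genes differed widely in level. In gWT the level of B2m was 1194 ± 104 CPM per kb, followed by H2-D1 at 249 ± 17, H2-K1 at 178 ± 15.4, Tapbp at 121 ± 1.19, H2-T23 at 50.5 ± 6.77, Tap1 at 35.4 ± 2.74, Tap2 at 27.7 ± 0.35, H2-M3 at 9.22 ± 1.58, H2-Q7 at 2.02 ± 0.41 and Nlrc5 at 0.43 ± 0.25 (n = 3 each, SD). Each gWT library of a gene was above every gWT library of the next gene in that order. In gKO the order down to H2-M3 was the same, but Tap1 (27.3 ± 1.36 CPM per kb) and Tap2 (25.2 ± 3.28) overlapped, and so did Nlrc5 (0.37 ± 0.24) and H2-Q7 (0.32 ± 0.42; SD, n = 3 each). On this scale B2m was at 2.7 to 2.86 times the summed level of H2-K1 and H2-D1 in the gWT libraries, 3.25 and 3.41 times in gKO replicates 1 and 2, and 6.45 times in gKO replicate 3.

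Class I genes are also expressed by other cells of the brain and blood, and markers of several of these differed between the genotypes. The 14 endothelial markers were all tested and all negative, with 1 called (Cldn5, log2 ratio -1.03, edgeR adjusted p = 0.0246). Mural markers (10 genes, 1 called lower) summed to 104 to 164 and 263 to 371 CPM, and fibroblast markers (9 genes, 3 called lower) to 214 to 226 and 388 to 569 CPM. Neutrophil markers (13 genes tested, 2 called higher) summed to 930 to 1356 CPM in gKO against 591 to 705 CPM in gWT. Without gKO replicate 3, where the class I calls were made, edgeR called 12 of 14 endothelial, 6 of 10 mural and 4 of 9 fibroblast markers as lower and 7 of 13 neutrophil markers as higher. Of the 16 microglial markers it called 0 with all 6 libraries. Without gKO replicate 3 it called 2 of the 16 as higher and 3 as lower, where it called 7.81% of all genes. Border macrophage markers (10 genes, 0 called, 6 positive and 4 negative) summed to 1637 to 1727 CPM in gKO against 1525 to 1591 CPM in gWT. Oligodendrocyte markers (10 genes, 9 tested, 1 called higher) summed to 387 to 452 CPM in gKO against 352 to 366 CPM in gWT. The neuron and erythroid sums overlapped between the genotypes. The part of these lists in the class I values was not tested either. Markers of T and natural killer cells, the cells that read class I, summed to 8.36 to 10.2 CPM in gKO against 8.80 to 9.66 CPM in gWT over the 10 genes in the table, with Cd3g and Ncr1 at 0 in every library. B cell markers (5 genes, Pax5 at 0 in every library) summed to 36.1 to 57.4 and 37.5 to 46.0 CPM, and dendritic cell markers (8 genes) to 44.5 to 58.9 and 33.5 to 37.8 CPM. Monocyte markers (10 genes, 2 called higher) summed to 392 to 569 CPM in gKO against 577 to 793 CPM in gWT, although 9 of the 10 had positive log2 ratios (median 0.86), and astrocyte markers (10 genes, 0 called, 5 at an unadjusted edgeR p under 0.05) to 275 to 320 against 389 to 437 CPM.

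**Figure D5:**
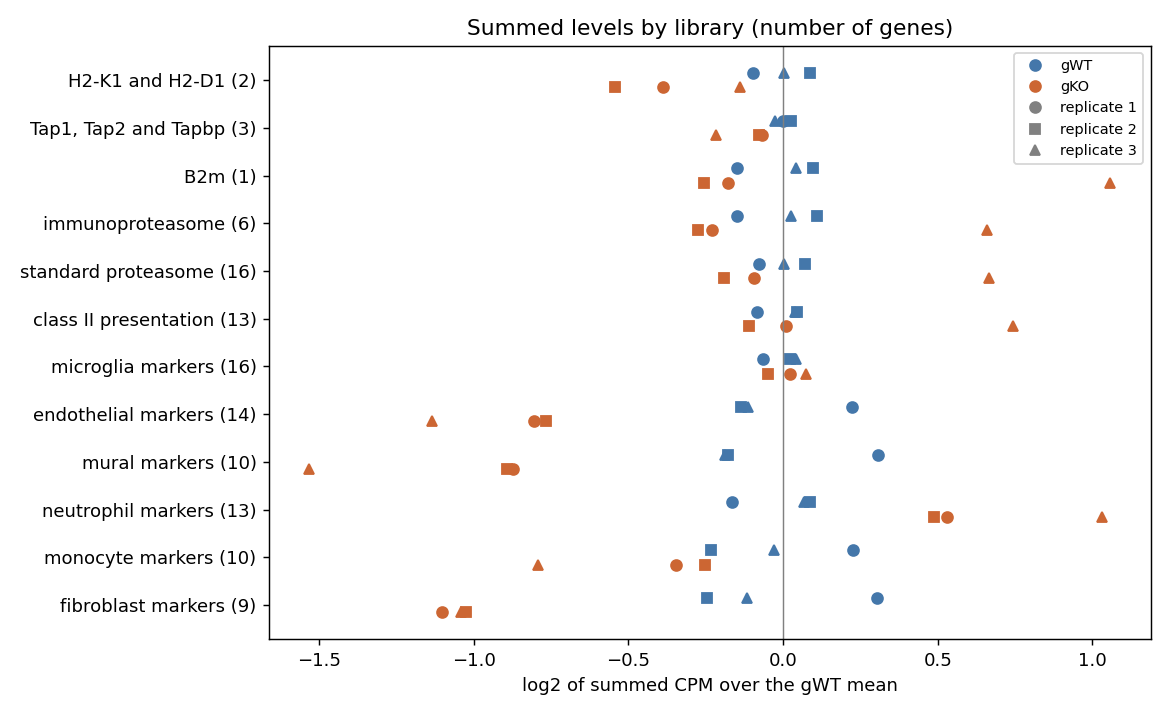
Summed CPM of class I genes, related lists and cell type markers in each library, as log2 of the ratio to the gWT mean, with the number of genes in brackets; blue is gWT, orange is gKO, and the shapes are replicates 1 to 3. The endothelial, mural and fibroblast sums of all gKO libraries lie below all gWT libraries, as does the H2-K1 and H2-D1 sum, and gKO replicate 3 stands alone in B2m, proteasome and class II genes.

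The genes whose pattern over the 6 libraries was closest to the mean pattern of the 10 class I genes, by root mean square difference of centred log2 CPM, were Hist1h1c (0.052), Tmem214 (0.055), Rbm14 (0.067), Lgals3bp (0.067) and Nt5c3b (0.072), with log2 ratios of -0.42, -0.31, -0.38, -0.41 and -0.34 and edgeR adjusted p of 0.231 to 0.629. The mean pattern of the 10 includes H2-Q7 (log2 ratio -2.65), which had to differ. The negative signs of these neighbours are therefore no separate support, and the pattern without H2-Q7 was not computed. Closest to Nlrc5 were Atp6v0d2 (0.30), Kcne1l (0.30) and Lrrc4b (0.37).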

How the data were processed

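Primary microglia RNA was sequenced in 6 libraries, and the authors deposited 1 table of expected counts per gene symbol. STAR 2.7.9a, RSEM and DESeq2 appear in the submitters' processing notes, as do the builds GRCm38 and mm10, and the role of each is not stated. Which annotation was counted, and whether by strand, was not given in the sources used here. Per the file headers, the authors' deposited lists give a mean normalized signal, a log2 fold change, 2 scores (its standard error and test statistic) and p-values.

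Columns were mapped to samples by name. Expected counts were rounded and fitted with edgeR 4.0.16 (TMM, default filter, robust quasi-likelihood test on genotype), with Benjamini-Hochberg adjustment over all 13403 tested genes. SE is the absolute log2 fold change over the square root of F. The fit was tested on simulated data. Exon lengths and coordinates (1-based, GRCm38) are from GENCODE M21, which matched 23365 symbols by name and 677 by synonym. Replicates differed by more than sampling noise (chi-square per degree of freedom at least 6.53).

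The 10 genes and the related lists were chosen with earlier results of these data known. The naming rule took each of the 10 genes and, per related list, up to 4 called genes or the 2 with the smallest p, any tested heavy chain, and the genes closest in pattern. 1 gene that the rule names is not reported here. Results were recomputed with DESeq2 1.42.0, with limma 3.58.1 (voom, with and without quality weights), with scaling by RLE or by the upper quartile, with 2 other filters, with the replicate block, without each library in turn, over sub-family sums, and with a length correction chosen after seeing the data.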

Additional observations from a re-analysis of the deposited data

How the results depend on the processing

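With all 6 libraries edgeR called 84 genes. The number was 391 by DESeq2, 413 by limma-voom with quality weights, 275 with the length trend removed, and 0 to 1079 with 1 library left out, the highest being without gKO replicate 3 (551 higher and 528 lower). Of the 10 class I genes 0 were called, against 2 by limma-voom with quality weights and 0 to 3 with 1 library left out. RLE and upper quartile scaling, limma-voom, DESeq2 and the other filters gave 0 as well. Each scaling moved the median of all genes by less than 0.1 on the log2 scale.

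With the replicate block 18 genes and 0 of the 10 were called. Same-numbered libraries did not deviate together (Pearson r of deviations 0.05, -0.05 and 0.02 for numbers 1, 2 and 3), so no pairing was seen. The gKO deviations are taken from a mean that includes the outlying replicate 3, so a pairing could be missed.

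Several fold changes changed sign, among them that of B2m, the largest positive one of the 10 genes with all libraries. With 1 library left out the log2 fold change of H2-T23 (0.04 with all) was -0.19 to 0.26, of B2m (0.34) -0.23 to 0.57, of Nlrc5 (-0.23) -0.88 to 0.14, of Psmb8 -0.18 to 0.27, of Psme1 -0.14 to 0.28, of Pomp -0.51 to 0.30, of Psma1 -0.44 to 0.27, of Psma7 -0.50 to 0.032 and of Psmb9 -0.37 to 0.28. By limma-voom with quality weights H2-T23 was at -0.20, B2m -0.14, Nlrc5 0.0040, Psmb8 -0.12, Psme1 -0.10, Pomp -0.43, Psma1 -0.36 and Psmb9 -0.30. By limma-voom H2-T23 was at -0.0075, Pomp -0.063, Psma1 -0.048 and Psmb9 -0.0076. With the replicate block H2-T23 was at -0.0034, Pomp -0.055 and Psma1 -0.045, and with the length trend removed H2-T23 was at -0.068, Psma1 -0.11 and Psmb9 -0.057. The cause was not tested. Summing the H2-Q genes changed the log2 ratio of means for H2-Q7 from -2.68 to -0.47, by adding H2-Q4, and summing the H2-T genes gave -0.13 where H2-T23 alone gave 0.04. H2-Q7 and Nlrc5 had 90 counts or fewer in every library, and how far depth limits them was not tested.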
